A study of Homo sapiens with 118 samples.

Results

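The genes described here make and load major histocompatibility complex (MHC) class I molecules: HLA-B, HLA-C, HLA-E, HLA-F, B2M, TAP1, TAP2, TAPBP and NLRC5. They were taken from the count table by name, as every probe whose gene symbol, without the number that follows it, matched 1 of these 9 genes. This gave 11 probes of the 22068 in the table, which carry 19470 gene symbols in all. TAP2 and TAPBP were each read by 2 probes and every other gene by 1.

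MHC class I molecules show fragments of a cell's own proteins to cytotoxic T cells and are read by receptors of natural killer cells. HLA-B and HLA-C encode classical heavy chains, HLA-E and HLA-F encode non-classical ones, and B2M encodes the light chain, beta-2-microglobulin, that they share. TAP1 and TAP2 form the transporter that moves peptides into the endoplasmic reticulum, tapasin, the product of TAPBP, holds the empty heavy chain at that transporter and edits its peptide, and NLRC5 is the transactivator of class I genes.

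The cells were HepaRG, an established human line from a liver tumor, thawed in the differentiated state and labelled as liver progenitor cells. They were exposed for 72 h, with the chemical renewed daily, to 1 of 8 histone deacetylase inhibitors at 5 rising concentrations called C1 to C5. The lysates were read by TempO-Seq, an assay in which pairs of detector oligos are ligated on their target RNA and counted. Labelled concentrations from C1 to C5 ran from 0.041722 to 0.86 µM for apicidin, 0.177222 to 3.9 µM for mocetinostat, 0.001468 to 0.084 µM for panobinostat and 4.94 to 94.5 µM for scriptaid. They ran from 1.143333 to 44 µM for tacedinaline, 0.018811 to 1.5237 µM for trichostatin A and 0.404778 to 23.5 µM for vorinostat. For valproic acid the sample labels ran from 100.478 to 3038, and the unit of those numbers is not settled. Each of the 40 groups held 3 libraries, 1 from each of 3 HepaRG batches, except panobinostat C3 and trichostatin A C4, which held 2. Solvent controls were not used here, so each chemical's own C1 was the reference, itself a treated group. Concentrations were not matched between chemicals, so values of different chemicals stand side by side without a comparison of potency.

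Promoter sequences are shown for 4 of these genes whose values the results turn on: TAPBP, which fell in most chemicals, HLA-C and HLA-B, whose levels varied together, and B2M, which was called nowhere. Each is the 250 bases before the RefSeq start site in GRCh38.p14, written 5′ to 3′ on the gene's own strand. They lie at chr6:33314079-33314328 (TAPBP, minus strand), chr6:31272093-31272342 (HLA-C, minus strand), chr6:31357180-31357429 (HLA-B, minus strand) and chr15:44711267-44711516 (B2M, plus strand). Capitals mark matches, on either strand, to CCAAT (the box bound by NF-Y), TGACG (a core of the cyclic AMP response element), GAAA followed after any 2 bases by GAAA (the interferon-stimulated response element), TTCNNNGAA (the gamma interferon activation site) and GGGA followed after any 3 bases by CCC (a kappa B site).
TAPBP: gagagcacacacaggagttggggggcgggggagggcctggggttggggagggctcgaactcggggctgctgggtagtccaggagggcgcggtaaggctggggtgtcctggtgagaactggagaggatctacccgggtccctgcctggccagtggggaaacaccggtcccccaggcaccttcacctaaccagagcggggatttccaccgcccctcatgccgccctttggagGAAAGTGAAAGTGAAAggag
HLA-C: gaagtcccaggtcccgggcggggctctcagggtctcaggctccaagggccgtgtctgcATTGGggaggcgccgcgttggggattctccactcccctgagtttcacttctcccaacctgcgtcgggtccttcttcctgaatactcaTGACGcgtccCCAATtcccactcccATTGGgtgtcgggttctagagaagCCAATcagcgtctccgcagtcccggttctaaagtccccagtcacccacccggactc
HLA-B: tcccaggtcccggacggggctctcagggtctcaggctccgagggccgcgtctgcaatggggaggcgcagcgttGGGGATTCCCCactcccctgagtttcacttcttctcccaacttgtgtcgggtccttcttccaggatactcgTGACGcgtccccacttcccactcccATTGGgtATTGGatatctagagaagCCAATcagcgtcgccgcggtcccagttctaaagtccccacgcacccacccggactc
B2M: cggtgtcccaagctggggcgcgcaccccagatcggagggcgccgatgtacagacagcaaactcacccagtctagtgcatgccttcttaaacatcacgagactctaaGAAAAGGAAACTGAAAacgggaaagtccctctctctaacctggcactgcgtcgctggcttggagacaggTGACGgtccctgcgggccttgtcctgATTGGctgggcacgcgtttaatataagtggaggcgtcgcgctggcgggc
The TAPBP window held 2 overlapping interferon-stimulated response elements close to the start site and no other of the 5 motifs. HLA-C held 4 CCAAT boxes and 1 TGACG, and HLA-B held 3 CCAAT boxes, 1 TGACG and 2 overlapping kappa B matches. In B2M there were 1 CCAAT box, 1 TGACG and 2 overlapping interferon-stimulated response elements. Of 35116 windows of this length in the table, 32% held CCAAT, 21.2% TGACG, 3.02% the interferon-stimulated response element, 6.57% TTCNNNGAA and 6.73% the kappa B site. These are matches of letters in a reference sequence, and binding was not measured. HLA genes also differ between people and resemble each other, and how far each probe tells 1 HLA gene from another was not checked.

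Total counts per library ran from 1061359 to 5250260, with a median of 3702007, and vorinostat at C5 was the shallowest group (1061359 to 1879287). Of the 118 libraries, 7 stood apart along 1 shared axis of residual variation around a curve fitted over each chemical's concentrations. They were mocetinostat C2 batches 1 and 2, mocetinostat C3 batch 1, apicidin C4 batch 1, panobinostat C2 batch 2, scriptaid C4 batch 3 and valproic acid C4 batch 3. None of them is a C1 or C5 library, but they enter the spread and the slopes of their chemicals. HLA-C was among the probes that moved most with them. Each was set against the mean of the chemical's libraries at the same or a neighbouring concentration that did not stand apart. HLA-C was higher in 6 of the 7 libraries, by 2.26 log2 units on average, which ranked 6 of 15632 probes. TAP2_27935 and TAPBP_26444 were higher in 7 of 7 (0.81 and 0.54 log2 units on average), B2M was higher in 0 of 7 (-0.54) and HLA-E in 1 of 7 (-1.18). Trichostatin A C1 batch 3 was not among these 7 but was unlike its group mates. Its hepatocyte marker genes summed to 13937 CPM (counts scaled to library size) against up to 57871 CPM in its group mates, with HLA-B at 7.18 CPM and TAPBP_6944 at 16.4 CPM. Among 8 leukocyte markers, PTPRC was at 0 in all 118 libraries and CD3E and LYZ in 115 or more, while CD68, CD14 and ITGAX were counted. Their summed level ran from 24.7 to 124 CPM over the C1 libraries and from 17.0 to 70.4 CPM at C5. Of 23 results 5 rose (21.7%, all ITGAX) and 3 fell (13%), where 11.6% of the C5 results over all probes rose and 13.4% fell. ITGAX was scarce, with a median of 1.65 CPM over all libraries and 0 counts in 18 of them. Its rises rest on low counts and carry little weight. Although the label says progenitor cells, hepatocyte markers were abundant, with group means of their summed level from 41993 to 64234 CPM at C1, while the biliary or progenitor probes together gave 69.2 to 120 CPM. Hepatocyte marker genes fell with the dose in 7 chemicals: the summed level of 11 probes was 1.83-fold (panobinostat) to 12.3-fold (tacedinaline) lower at C5 than at C1. In trichostatin A it was 43446 CPM at C5 (37711 to 49226) and 41993 CPM at C1 (13937 to 57871). That C1 mean includes the batch 3 library at 13937 CPM. Of the other markers, biliary or progenitor probes rose in 11 of 33 results (33.3%) and fell in none. The rises were those of SPP1 (5), SOX9 (5) and KRT19 (1). Stromal probes fell in 27 of 64 results (42.2%) and rose in 8 (12.5%). The part of these markers in the class I results was not tested, and in bulk lysates a lower share of one kind of cell and less RNA per cell cannot be told apart.

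At C5 the class I genes had more falls than rises, and most of the falls were those of TAPBP. A change was called when the adjusted p of edgeR's quasi-likelihood test was under 0.05 and the fold change from C1 at least 1.5. Over the 8 chemicals, 16 of 86 probe-by-chemical results fell (18.6%) and 3 rose (3.49%), where 13.4% of all results fell and 11.6% rose. The share that fell was above that over all probes and the share that rose below it. By chemical, 4 of the probes fell in vorinostat (24.9% of all its probes fell) and 4 in scriptaid (17%), 3 in mocetinostat (15.7%), 2 in tacedinaline (20.1%), 2 in panobinostat (9.46%) and 1 in apicidin (15%). Rises were seen in vorinostat (2 probes, where 22.7% of all its probes rose) and panobinostat (1 probe, 6.77%), and none in mocetinostat (14.8%), tacedinaline (18.7%), scriptaid (12.8%) or apicidin (13.8%). Of the 16 that fell, 11 belonged to the 2 TAPBP probes. The other 9 probes fell in 5 of 70 results (7.14%), a share below that over all probes, and rose in 3 (4.29%). The median change over the 86 results was -0.31 log2 units, against 0.02 over all probes. Along all 5 concentrations, tested as a slope and given as the fitted change from C1 to C5, 18 fell and 3 rose, with backgrounds of 12.7% falling and 12.7% rising, and without the libraries that stood apart 22 fell and 4 rose (13.9% and 13.9%). Trichostatin A had 0 calls among these probes at any concentration by edgeR or DESeq2, and 0 at an unadjusted p under 0.05, and it had hardly any calls elsewhere: 0% of its probes rose and 0.0154% fell at C5. Valproic acid had 0 at C5 by either tool, with 1 fall at an unadjusted p under 0.05, where 4.84% of its probes rose and 6.22% fell. At the lower concentrations, C2 had 0 calls by edgeR or DESeq2 (backgrounds 0.0659% rising, 0.0206% falling), with 6 rises and 2 falls at an unadjusted p under 0.05. C3 had 1 rise and 1 fall (2.82% and 3.16%) and C4 had 1 rise and 10 falls (7.85% and 8.14%). With the 7 libraries that stood apart left out, falls at C5 were 24 (background 15.3%), rises 3 (13.5%), and calls at C2 to C4 were 24 instead of 13 (4.15% rising and 4.63% falling, against 3.58% and 3.77% with every library). All 19 calls at C5 and all 13 at C2 to C4 that were made with every library were made without them too.

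**Figure D1:**
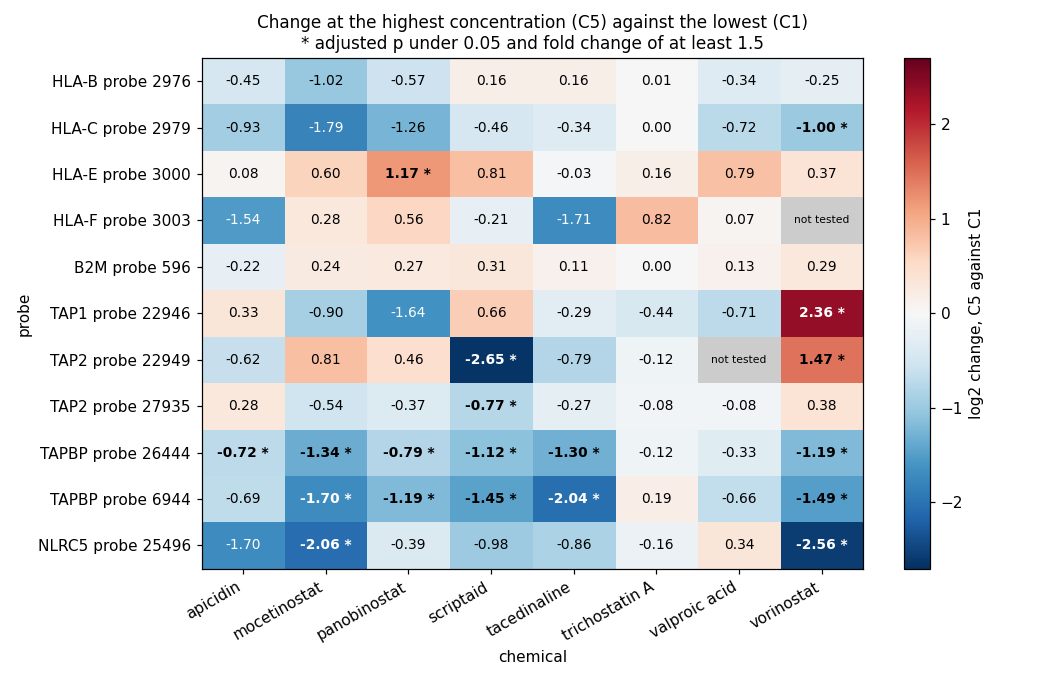
Log2 change at C5 against C1 for each of the 11 probes (rows) in each of the 8 chemicals (columns), with red for higher and blue for lower at C5 and an asterisk for a called change. Both TAPBP rows are blue in apicidin, mocetinostat, panobinostat, scriptaid, tacedinaline and vorinostat (-0.69 to -2.04), while the B2M row stays between -0.22 and 0.31.

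TAPBP, which encodes tapasin, was the gene that changed in the most chemicals. TAPBP_26444 fell at C5 in 6 chemicals and TAPBP_6944 in 5 of the same 6. In tacedinaline, TAPBP_26444 read 154, 171 and 151 CPM in the 3 C1 libraries and 50.0, 75.2 and 59.8 CPM at C5, a change of -1.30 log2 units (SE 0.17, edgeR adjusted p 4.57e-08). All 3 C5 libraries lay below all 3 C1 libraries, by a wide gap. TAPBP_6944 in the same libraries read 42.5, 49.0 and 57.5 CPM at C1 and 8.00, 7.93 and 19.0 CPM at C5, a change of -2.04 (SE 0.325, edgeR adjusted p 1.63e-06). In vorinostat, TAPBP_26444 went from 214, 223 and 176 CPM to 67.9, 82.7 and 97.7 CPM (-1.19, SE 0.16, edgeR adjusted p 2.27e-07). The mocetinostat libraries went from 258, 200 and 245 CPM to 65.7, 111 and 87.2 CPM (-1.34, SE 0.28, edgeR adjusted p 0.00183). Here too the C1 and C5 libraries did not overlap.

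Scriptaid, panobinostat and apicidin showed the same direction at C5 for TAPBP. TAPBP_26444 read 203, 183 and 206 CPM at C1 of scriptaid and 108, 72.7 and 83.6 CPM at C5 (-1.12, SE 0.25, edgeR adjusted p 0.00215). For panobinostat the values were 224, 209 and 270 CPM against 157, 109 and 145 CPM (-0.79, SE 0.17, edgeR adjusted p 0.00241). Apicidin, the remaining one, had 239, 212 and 217 CPM at C1 and 123, 141 and 141 CPM at C5 (-0.72, SE 0.16, edgeR adjusted p 0.00167). None of these C1 and C5 groups overlapped. For TAPBP_6944 the changes were -1.45 in scriptaid (edgeR adjusted p 0.00594), -1.19 in panobinostat (0.00295), -1.70 in mocetinostat (0.0231) and -1.49 in vorinostat (1.97e-05). In apicidin it was at -0.69 with an adjusted p of 0.0749, which became 0.0108 without the apicidin library that stood apart. Leaving out HepaRG batch 2 ended the calls in scriptaid for both probes (adjusted p 0.0787 for TAPBP_26444 and 0.160 for TAPBP_6944) and that of TAPBP_6944 in mocetinostat (0.175). Without batch 3, TAPBP_26444 in panobinostat was at an adjusted p of 0.0805.

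The other 2 chemicals gave no TAPBP call at C5. In valproic acid TAPBP_26444 read 234, 249 and 216 CPM at C1 and 173, 197 and 186 CPM at C5 (-0.33, SE 0.145, edgeR adjusted p 0.157), so the groups did not overlap but the fold change stayed under 1.5. TAPBP_6944 was at -0.66 there, with an adjusted p of 0.317 that became 0.0383 without the library that stood apart. In trichostatin A TAPBP_26444 read 237, 254 and 148 CPM at C1 and 155, 198 and 224 CPM at C5. These groups overlapped (-0.12, SE 0.195, edgeR adjusted p 0.895). The lowest C1 value is that of batch 3, the library unlike its group mates, which was not among the 7 that stood apart.

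The fall of TAPBP began below the highest concentration in several chemicals. In apicidin TAPBP_26444 was already lower at C3 (149, 122 and 121 CPM, -0.76, edgeR adjusted p 0.00199), and it stayed near that level at C4 (-0.74) and C5 (-0.72). At C4 it had fallen in mocetinostat (-1.04), tacedinaline (-0.96) and vorinostat (-1.09) as well, and TAPBP_6944 in those 3 (-1.80, -0.90 and -1.57). As a slope, TAPBP_26444 fell in the same 6 chemicals as at C5, from -0.78 in panobinostat to -1.62 in mocetinostat. The scriptaid slope (-0.81, adjusted p 0.0402) did not hold without batch 1 (0.276), without batch 2 (0.335) or with relative log expression scaling (0.0557), and the panobinostat slope was at 0.0562 without batch 3. TAPBP_6944 fell as a slope in mocetinostat, panobinostat, tacedinaline and vorinostat. In apicidin its slope (-0.61, edgeR adjusted p 0.0552) was called with HepaRG batch as a block (0.0460). Without the library that stood apart in each, TAPBP_6944 slopes were also called in apicidin (-0.77, edgeR adjusted p 0.00269) and valproic acid (-0.79, 0.00437). The mocetinostat slopes were smaller without the libraries that stood apart, at -1.36 instead of -1.62 for TAPBP_26444 and -1.97 instead of -2.55 for TAPBP_6944. Across the 40 group means, centred within each chemical, the 2 probes had a correlation of 0.932, and 0.899 without those libraries. These groups share libraries and scaling, so this is a description.

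**Figure D2:**
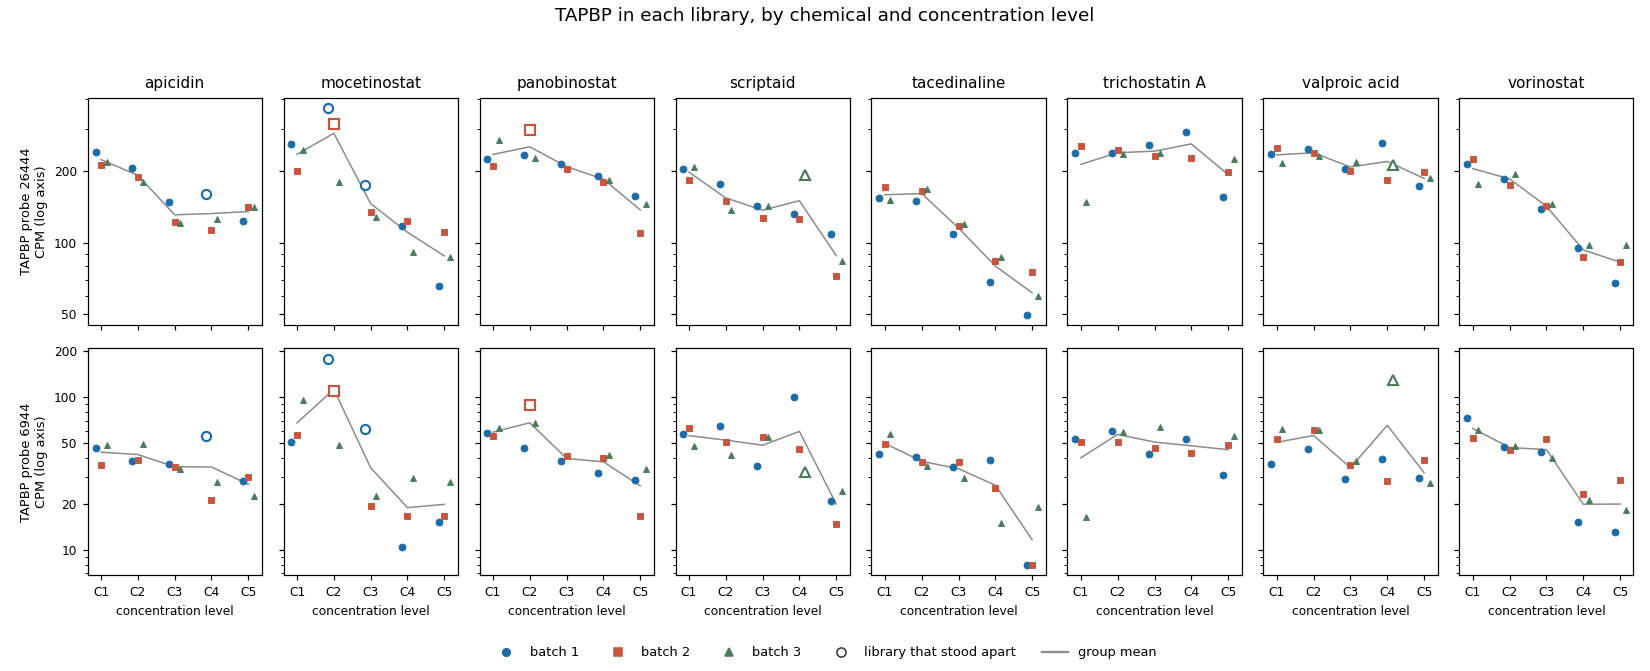
TAPBP in CPM (log axis) at C1 to C5 in each chemical, by probe (rows), with 1 point per library marked by HepaRG batch, open symbols for the 7 libraries that stood apart and a line through the group means. In tacedinaline TAPBP_26444 goes from 151 to 171 CPM at C1 to 50.0 to 75.2 CPM at C5, and trichostatin A shows no such descent.

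Among the heavy chains, HLA-C fell and HLA-E rose where they were called, and HLA-B was called once with every library and no block. In vorinostat HLA-C read 60.9, 37.2 and 51.7 CPM at C1 and 25.4, 19.5 and 24.6 CPM at C5, without overlap (-1.005, SE 0.28, edgeR adjusted p 0.00278), and it was already lower at C4 (-0.67, adjusted p 0.0416). Its slope there was -1.10 (adjusted p 0.00622, and 0.0562 without batch 1). In mocetinostat the C1 libraries spread from 43.6 to 153 CPM and the C5 libraries from 11.9 to 41.0 CPM, a change of -1.79 (SE 0.79) that missed the threshold (edgeR adjusted p 0.0994). The libraries did not overlap, and without the 3 mocetinostat libraries that stood apart the change was -1.87 with an adjusted p of 0.000177. Those 3 libraries, at C2 and C3, read 521, 308 and 142 CPM, and no other mocetinostat library except the one at 153 CPM was above the lowest of them. The slope in mocetinostat was -3.54 with them (adjusted p 0.0238) and -1.98 without them (3.64e-05), and with them it was not called without batch 2 (0.0945) or batch 3 (0.102).

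Panobinostat gave a like pattern for HLA-C. The C1 libraries read 44.4, 67.0 and 59.6 CPM and the C5 libraries 20.1, 29.6 and 22.0 CPM, which did not overlap, with a change of -1.26 (SE 0.46, edgeR adjusted p 0.0637). With HepaRG batch as a block the adjusted p was 0.0184. Without the C2 library at 218 CPM that stood apart, the same change had an adjusted p of 0.000206. The slope was -1.92 with that library (adjusted p 0.00767, and 0.0503 without batch 3) and -1.27 without it. In apicidin HLA-C was at -0.93 with an adjusted p of 0.213, or 0.00760 without the C4 library at 162 CPM. For scriptaid, tacedinaline, trichostatin A and valproic acid the changes ran from -0.72 in valproic acid to 0.00 in trichostatin A and none was called. HLA-B, read by 1 probe at 7.18 to 131 CPM over the C1 libraries, was called only as a slope in mocetinostat (-1.38, adjusted p 0.0274), and not without batch 3 (0.258), whose C1 library read 131 CPM against 39.4 and 26.6 CPM in its mates. Without the libraries that stood apart, HLA-B fell in mocetinostat at C3 (-1.32, adjusted p 0.0229), C4 (-0.94, 0.0398), C5 (-1.09, 0.0154) and as a slope (-1.12, 0.00840), and as a slope in panobinostat (-0.76, 0.0478). With HepaRG batch as a block HLA-B was also called as a falling slope in panobinostat (adjusted p 0.0172, against 0.0528 without the block) and as higher at C4 in tacedinaline (0.0473 against 0.0880 without it). At C5 its changes ran from -1.02 in mocetinostat to 0.16 in tacedinaline. HLA-B and HLA-C had a correlation of 0.818 over the 40 centred group means, or 0.745 without the libraries that stood apart.

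HLA-E, the ligand of the natural killer cell receptor CD94/NKG2A, rose in panobinostat. The C1 libraries read 14.1, 17.3 and 10.0 CPM, the C4 libraries 41.8, 24.7 and 33.5 CPM and the C5 libraries 39.4, 30.8 and 25.0 CPM. Every C4 and C5 library lay above every C1 library, and the changes were 1.25 at C4 (SE 0.30, edgeR adjusted p 0.0241) and 1.17 at C5 (SE 0.30, adjusted p 0.00753), with a slope of 1.14 (adjusted p 0.00447). The C5 call was lost without batch 1 (adjusted p 0.137) and without batch 3 (0.0760), and the slope without batch 1 (0.0610). In tacedinaline HLA-E was called at C3, with 41.0, 66.7 and 37.7 CPM against 20.8, 27.4 and 30.5 CPM at C1 (0.87, SE 0.27, edgeR adjusted p 0.0261). It was about as high at C2, with 40.9, 55.7 and 46.0 CPM, all above C1, but that change was not called (0.83, edgeR adjusted p 0.255), and at C5 it read 26.0, 25.9 and 23.9 CPM (-0.03). The other C5 changes ran from 0.08 in apicidin to 0.81 in scriptaid, none called. Without the library that stood apart in valproic acid, a slope of 0.72 was called there (adjusted p 0.0437). HLA-C and HLA-E varied in opposite directions over the 40 centred group means, with a correlation of -0.73, or -0.62 without the libraries that stood apart.

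HLA-F was too scarce for firm statements, at 0 to 11.0 CPM over all libraries and 0 counts in 6 of them. It was tested in 7 chemicals and called in 0 by edgeR or DESeq2, with 0 at an unadjusted p under 0.05, with changes from -1.71 to 0.82 at C5. In vorinostat, where it did not pass the filter on low counts, its libraries held 7, 7 and 12 reads at C1 and 0, 1 and 0 at C5. The summed counts of 26 and 1 gave a depth-scaled ratio of 14.5 with a 95% interval from 2.39 to 596.1, which covers counting error only.

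B2M, by contrast, was called in 0 of 8 chemicals at any concentration or as a slope, by edgeR or DESeq2, and 4 of these 40 edgeR tests had an unadjusted p under 0.05. Over the 24 C1 libraries it ran from 611 to 1050 CPM. Its changes at C5 lay between -0.22 (SE 0.19, apicidin) and 0.31 (SE 0.24, scriptaid). Only in vorinostat did the adjusted p pass, with 693, 611 and 794 CPM at C1, 923, 933 and 923 CPM at C4 (0.45, SE 0.12, edgeR adjusted p 0.00433) and 817, 792 and 786 CPM at C5 (0.29, adjusted p 0.0470), and both folds were under 1.5. So B2M was slightly higher in vorinostat at C4, without overlap, in the chemical where HLA-C and both TAPBP probes fell.

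**Figure D3:**
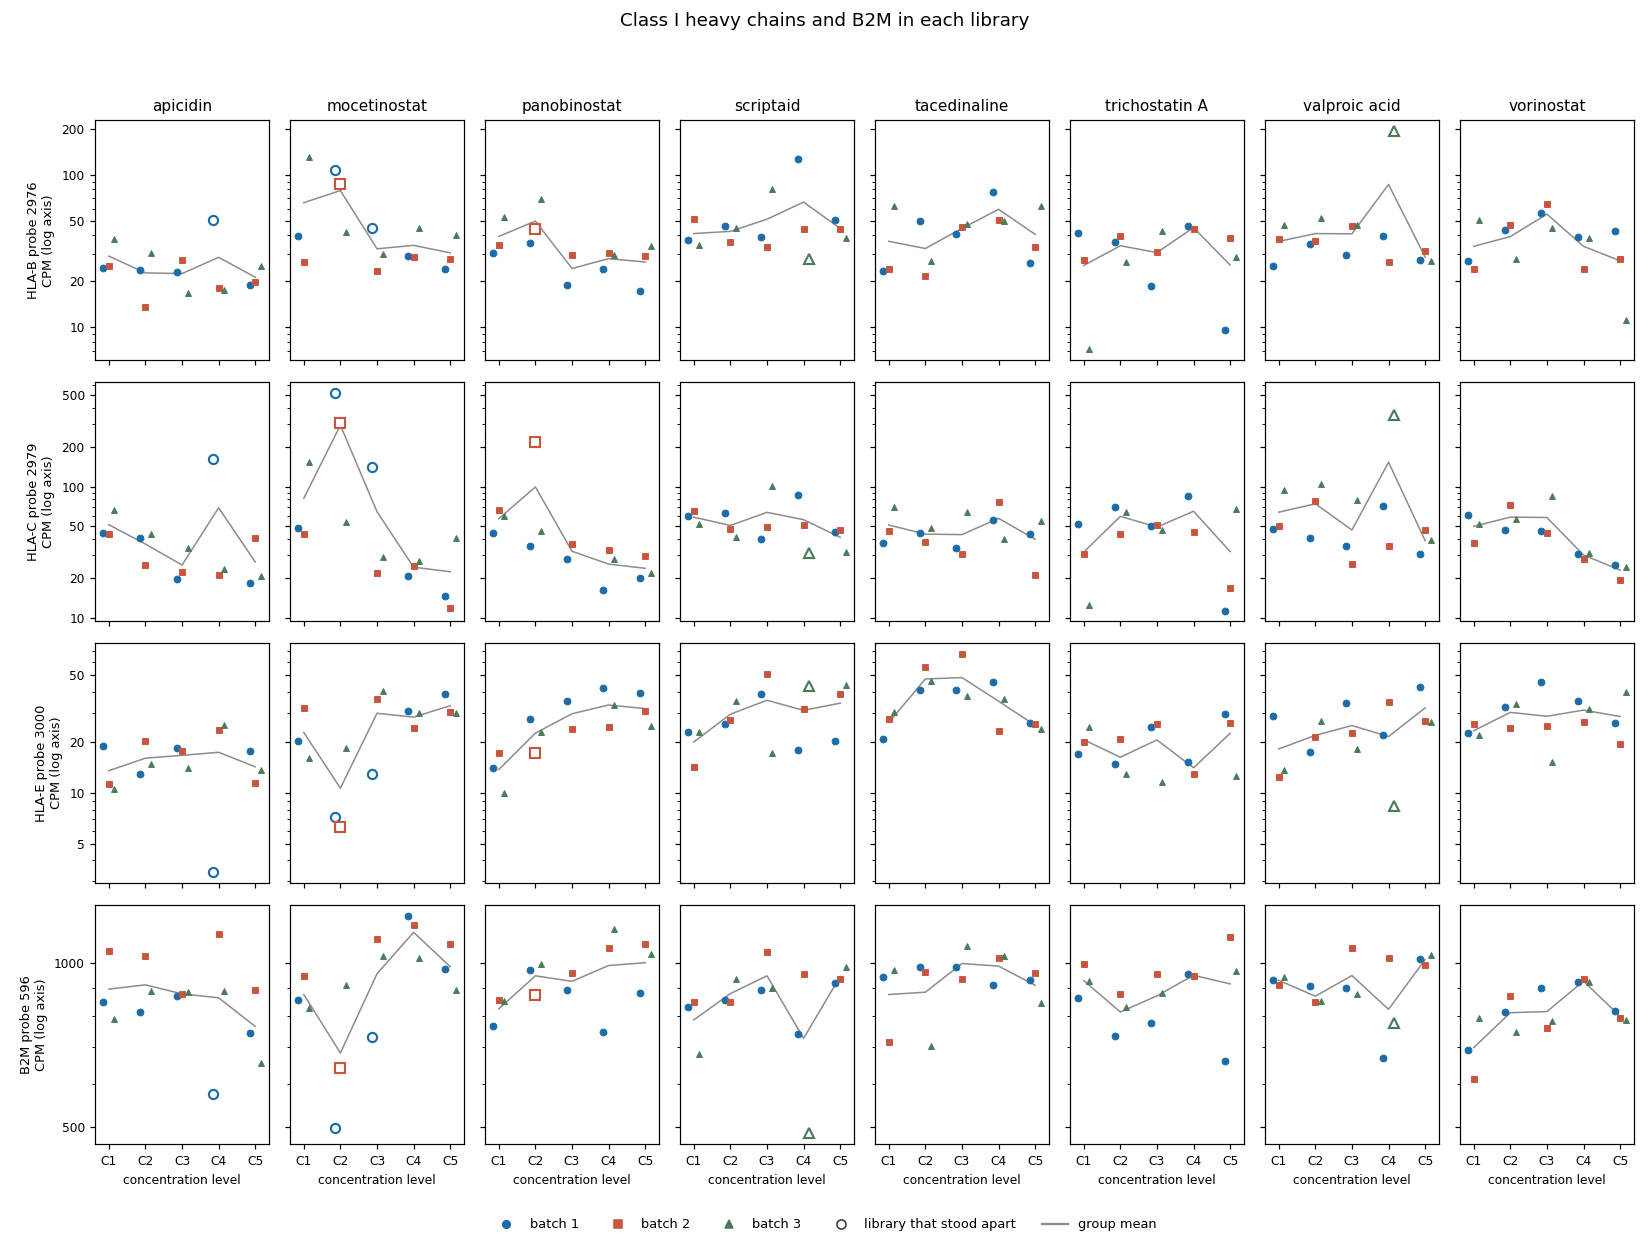
HLA-B, HLA-C, HLA-E and B2M in CPM (log axes) at C1 to C5 in each chemical, with 1 point per library marked by HepaRG batch, open symbols for the 7 libraries that stood apart and a line through the group means. The open symbols of HLA-C reach 521 CPM in mocetinostat, and HLA-E climbs from 10.0 to 17.3 CPM at C1 to 25.0 to 39.4 CPM at C5 in panobinostat. In all 7 libraries that stood apart B2M lay below the mean of the chemical's other libraries at the same or a neighbouring concentration.

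NLRC5, the class I transactivator, fell in mocetinostat and vorinostat at C5 and in apicidin at C4. Its counts were low, 1 to 189 reads per library. In vorinostat it read 19.9, 7.78 and 5.60 CPM at C1 and 3.27, 0.476 and 1.75 CPM at C5, which is 36, 31 and 18 reads against 4, 1 and 3. The libraries did not overlap, and the change was -2.56 (SE 0.68, edgeR adjusted p 0.00213), with a slope of -2.06 (adjusted p 0.00494, and 0.108 without batch 1). In mocetinostat C1 read 8.67, 11.1 and 15.9 CPM and C5 read 2.87, 4.13 and 0.918 CPM, a change of -2.06 (SE 0.645, edgeR adjusted p 0.0225). This call was lost without batch 2 (adjusted p 0.101) and without batch 3 (0.0964), and without the libraries that stood apart it was at -2.13 with an adjusted p of 0.00170. In apicidin NLRC5 went from 8.62, 4.02 and 7.83 CPM at C1 to 2.37, 0.696 and 2.16 CPM at C4 (-1.95, SE 0.70, edgeR adjusted p 0.0460) and 0.263, 1.96 and 3.97 CPM at C5 (-1.70, SE 0.68, adjusted p 0.0641). All of these lay below the C1 libraries, and without the apicidin library that stood apart the C5 change was called (-1.70, adjusted p 0.0371). The apicidin slope was -2.10 (adjusted p 0.0135, and 0.0641 without batch 1). The other C5 changes ran from -0.98 in scriptaid to 0.34 in valproic acid, where with HepaRG batch as a block NLRC5 was called as higher at C4 (adjusted p 0.0382, against 0.0710 without the block and 0.0400 by DESeq2). Over the 40 centred group means NLRC5 had a correlation of 0.715 with TAPBP_26444 and 0.556 with HLA-C, or 0.681 and 0.487 without the libraries that stood apart.

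The transporter subunits moved in fewer chemicals and not all one way. TAP1 was scarce, at 0 to 14.0 CPM. In vorinostat it rose from 2.21, 1.00 and 2.80 CPM at C1 to 9.00, 8.08 and 11.7 CPM at C5, without overlap (2.36, SE 0.68, edgeR adjusted p 0.00395). The call was at 0.0502 without batch 2. Reads per library averaged 5.67 at C1 and 16 at C5, so TAP1 passed the filter on low counts there mainly through groups above C1. It was called with no filter too, but from so few reads this rise carries little weight. The C3 libraries, at 9.01, 5.92 and 6.62 CPM, were above C1 as well (1.87), but the adjusted p was 0.0873. In panobinostat TAP1 went the other way, from 6.07, 7.25 and 6.28 CPM to 1.95, 2.40 and 1.93 CPM. That C5 change of -1.64 (SE 0.58) missed the threshold (edgeR adjusted p 0.0560), while the slope of -1.48 passed it (0.0330). The TAP1 slopes in vorinostat (1.69, adjusted p 0.0199) and panobinostat were each lost without any 1 batch, with adjusted p from 0.0604 to 0.107 and from 0.0762 to 0.187, and the panobinostat slope was at 0.0567 with no filter on low counts.

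The 2 TAP2 probes differed in level and in what they did. TAP2_27935 read 173 to 255 CPM over the C1 libraries and TAP2_22949 0 to 15.3 CPM. TAP2_22949 was higher at C1 in the chemicals of plate E (scriptaid, tacedinaline and vorinostat) than in those of plate H, with a highest group mean of 10.7 CPM in scriptaid and a lowest of 1.67 CPM in apicidin, and plate and chemical cannot be told apart. In scriptaid both probes fell at C5: TAP2_22949 from 7.99, 15.3 and 8.90 CPM to 1.70, 1.70 and 1.45 CPM (-2.65, SE 0.59, edgeR adjusted p 0.00229) and TAP2_27935 from 191, 187 and 255 CPM to 146, 121 and 93.3 CPM (-0.77, SE 0.28, adjusted p 0.0449). Neither pair of groups overlapped. Without batch 2 both calls were lost (adjusted p 0.0998 and 0.207), and TAP2_27935 was also lost without batch 1 (0.0950), without batch 3 (a change of -0.47, under 1.5-fold), with relative log expression scaling (0.0513) and with total counts only (0.0542). In vorinostat TAP2_22949 rose from 1.66, 9.04 and 5.29 CPM to 9.82, 10.5 and 23.4 CPM (1.47, SE 0.56, edgeR adjusted p 0.0276), a call lost without batch 1 (0.123) and batch 3 (0.313). TAP2_27935 in mocetinostat read 204, 212 and 214 CPM at C1 and 124, 141 and 147 CPM at C5, without overlap (-0.54, edgeR adjusted p 0.153), and it was called there without the libraries that stood apart (-0.61, adjusted p 0.00122). In vorinostat it was at 0.38, with an adjusted p of 0.0469 but a fold change under 1.5. In tacedinaline TAP2_22949 fell at C4 (2.78, 1.45 and 3.06 CPM, -1.81, edgeR adjusted p 0.0135) and read 3.50, 7.24 and 3.30 CPM at C5 (-0.79, adjusted p 0.266). The TAP2_22949 slopes in tacedinaline (-1.41, adjusted p 0.0193) and vorinostat (1.22, 0.0469) were both lost without any 1 batch, and the vorinostat slope also with HepaRG batch as a block (0.0547), with relative log expression scaling (0.0559) and with no filter on low counts (0.0788).

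**Figure D4:**
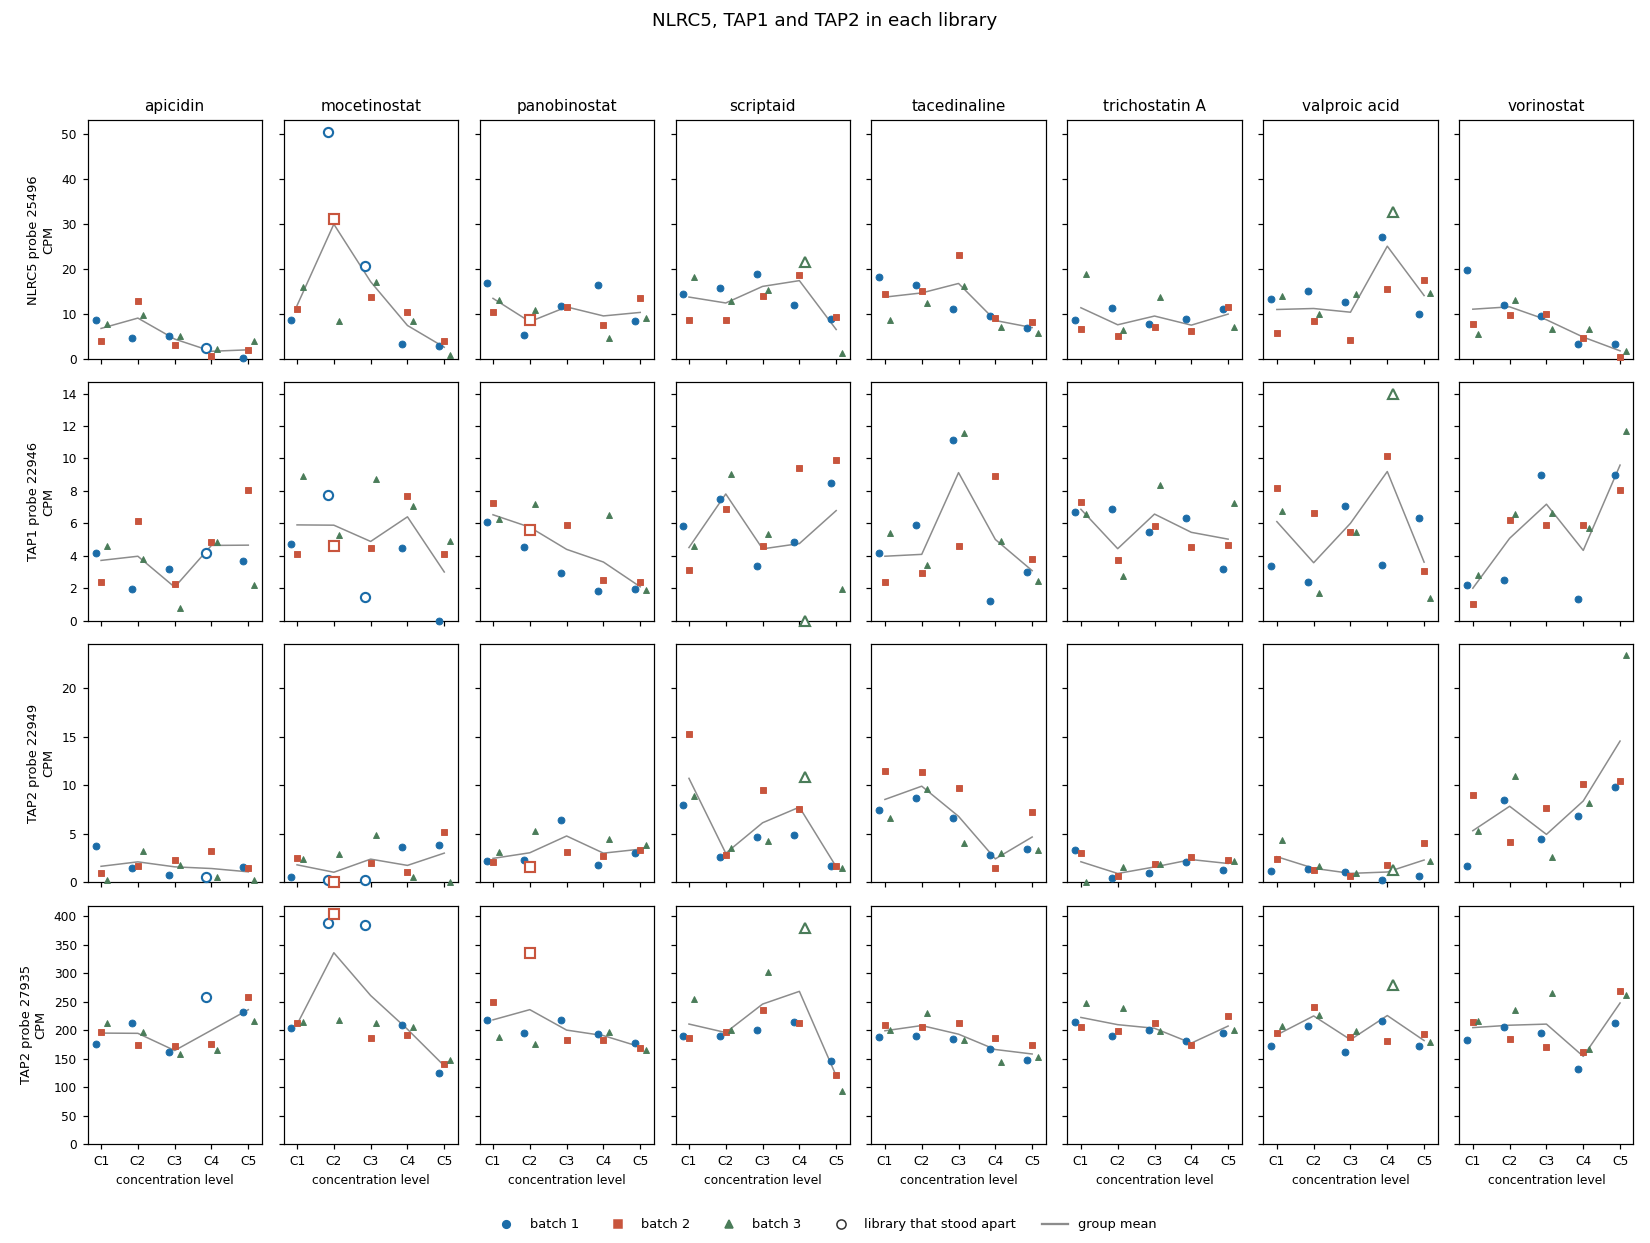
NLRC5, TAP1 and both TAP2 probes in CPM (linear axes from 0) at C1 to C5 in each chemical, with 1 point per library marked by HepaRG batch, open symbols for the 7 libraries that stood apart and a line through the group means. In vorinostat NLRC5 descends to 0.476 to 3.27 CPM at C5 while TAP1, from few reads at C1, climbs to 8.08 to 11.7 CPM.

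Whether the change from C1 to C5 differed among the 8 chemicals was tested in 1 fit over all 118 libraries. It did so for 5 of the 11 probes, where 30.3% of all 15632 probes passed. They were TAPBP_26444 (edgeR adjusted p 7.78e-06), TAP2_27935 (0.00386), TAPBP_6944 (0.00746), NLRC5 (0.0126) and TAP1 (0.0212). TAPBP_26444 alone passed also without each batch in turn (adjusted p 0.00286 to 0.0109). Without trichostatin A, TAPBP_6944 no longer passed (0.239). TAP2_22949 passed only with HepaRG batch as a block (0.0495, against 0.0621), without the libraries that stood apart (0.0259) or without trichostatin A (0.0493). HLA-C, HLA-B, HLA-E and B2M did not pass (0.647, 0.769, 0.513 and 0.654), so a call in 1 chemical and not in another does not show that those genes responded differently between chemicals.

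Other genes of the pathway, taken from lists of known function, are given as counts beside the shares over all probes, 13.4% falling and 11.6% rising. Of 78 results for other class I and class I-like genes 36 fell (46.2%) and 6 rose (7.69%) at C5. Most of these falls were those of HFE, the class I-like regulator of iron uptake, and MR1, which presents microbial vitamin metabolites, each read by more than 1 probe. The tested HFE probes fell in 7, 6 and 5 chemicals and both MR1 probes in 7, while FCGRT fell in 3 and AZGP1 in 1. HFE_27307 went from 60.1 to 7.02 CPM in tacedinaline (-3.03) as group means. The stress ligand MICA rose in 4 chemicals, the only ones where it passed the filter on low counts, from levels under 1 CPM at C1, so it passed only through the groups where it was high and these rises carry no weight. Without MICA, 2 of 74 class I-like results rose. For peptide loading and trimming, 20 of 70 fell and 3 rose. The trimming aminopeptidases ERAP2 and ERAP1 fell in 7 and 6 chemicals, ERAP2 from 267 to 25.8 CPM in tacedinaline (-3.31, edgeR adjusted p 4.71e-18), and the chaperone calreticulin (CALR) in 5. Of the immunoproteasome, which cuts peptides suited to class I, 8 of 32 fell and 0 rose. PSMB8 fell in 6 chemicals, from -0.82 in apicidin to -2.30 in mocetinostat, and PSMB9 in 2 (mocetinostat -0.78, tacedinaline -0.66).

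The list of transcription factors and interferon signalling was mixed, with 36 of 202 falling (17.8%) and 26 rising (12.9%). NFKB1, the p50 subunit of NF-kappa B, fell in 6 chemicals (-1.06 in apicidin to -2.96 in scriptaid) and IRF2 in 5, while the kinase JAK1 and 2 of the 3 RELA probes rose in 4 (the remaining RELA probe in 2), JAK1 by 1.47 in vorinostat (109 to 282 CPM). For the interferon signalling factor IRF9, IRF9_90117 fell in 4 chemicals, while IRF9_89553 was tested in 7 and fell in 0. Class II genes rose in 14 of 56 results (25%) and fell in 8 (14.3%), and the rises were those of HLA-DQB1_2990 and HLA-DMB, each in 7 chemicals. HLA-DQB1_19840 was tested in 4 chemicals and rose in 0. HLA-DMB, whose product helps load class II molecules, went from 4.10 to 39.7 CPM in scriptaid (3.30), and HLA-DQB1_2990 from 4.45 to 38.8 CPM in mocetinostat (3.18). C1 group means of HLA-DQB1_2990 were 0.280 CPM in panobinostat, 1.25 in valproic acid, 1.27 in vorinostat, 2.08 in apicidin and 2.76 in scriptaid. HLA-DMB was at 1.74 CPM at C1 of panobinostat. These levels are near or under the filter on low counts, so the probes passed there mainly through groups where they were high. Those rises carry no weight, and the 25% still includes them. CIITA, the class II transactivator, fell in scriptaid alone (-2.52, edgeR adjusted p 0.0498) and rose in none, and the protease CTSS fell in 6. Ligands of natural killer and T cell receptors rose in 22 of 77 results (28.6%), or 18 of 73 without MICA, and fell in 5 (6.49%). CD274, which encodes PD-L1, rose in 5 chemicals, from 4.30 to 25.1 CPM in vorinostat (2.58). RAET1L, a ligand of NKG2D, also rose in 5, from C1 group means of 0.0788 CPM (apicidin) to 1.65 CPM (mocetinostat), and was at 0 in 24 libraries. As with MICA, these RAET1L rises carry no weight, and the 18 of 73 still include them. Trichostatin A had 0 calls in each of these lists.

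**Figure D5:**
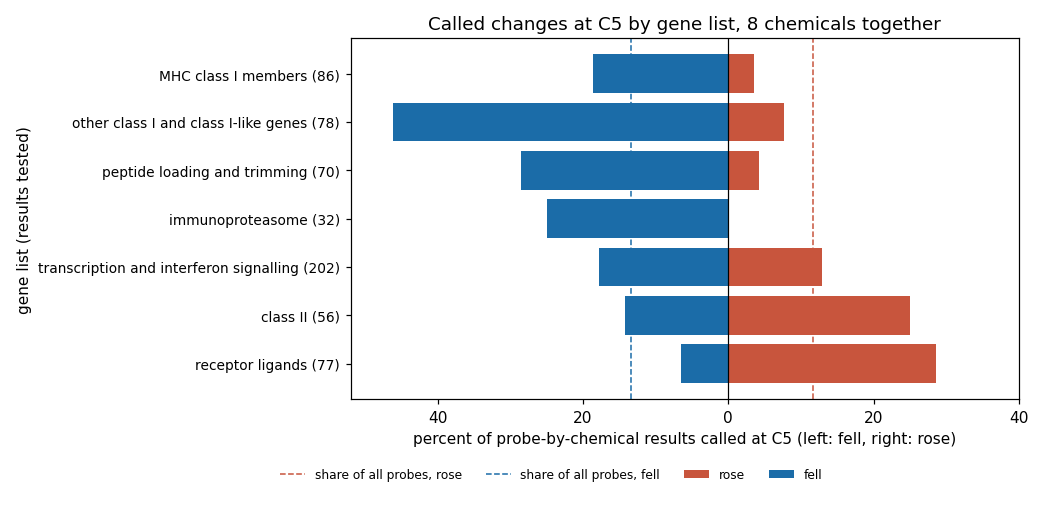
Share of probe-by-chemical results called at C5, falling to the left in blue and rising to the right in red, for the 9 class I genes and for each list of other genes, with the number of results in brackets. Dashed lines give the shares over all probes (13.4% falling, 11.6% rising). Class I-like genes reach 46.2% falling, mostly by probes of HFE and MR1, and receptor ligands 28.6% rising, with MICA and RAET1L counted.

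The genes whose levels ran most like those of each member were sought over the 40 group means, centred within each chemical, among 15621 probes. TAPBP_26444 was most like DHRS4L2 (correlation 0.975), APOL1 (0.971) and MST1 (0.967), and the values without the libraries that stood apart were 0.970, 0.968 and 0.961. TAPBP_6944 was most like ZC3H7B (0.964), FUBP1 (0.948) and PSMB8 (0.938), the last a gene of the immunoproteasome list. HLA-C was most like MCM3AP (0.897, or 0.832 without those libraries), HLA-B most like DCTN2 (0.824, or 0.739), NLRC5 most like NQO1 (0.860, or 0.832), TAP2_27935 most like SMAD3 (0.856, or 0.803), and HLA-E most like CTSA (0.842, or 0.750). For B2M it was YWHAE (0.825, or 0.690), and for TAP1 the highest correlation was only 0.626, with TMED4. The points share libraries and depth, and these values are descriptions.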

How the data were processed

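TempO-Seq libraries of 118 HepaRG lysates were analysed. The authors deposited 1 table of counts per detector probe, not normalized. The submitters' processing notes name bcl2fastq 2.20.422, fastp 0.23.2, STAR 2.7.10b and DESeq2 1.38.0; the genome build is not given in the sources used here. Of 22069 rows, 1 was left out because 88 libraries had no value in it.

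Groups (chemical and concentration) and batches were taken from the sample labels. Per chemical, edgeR 4.0.16 (R 4.3.3) was run with filterByExpr and TMM scaling, C2 to C5 were tested against C1 and a slope on the log2 labelled concentration was fitted. Benjamini-Hochberg adjustment ran over all probes tested in that chemical, 86 of 88 member results being tested (TAP2_22949 failed the filter in valproic acid and HLA-F in vorinostat). An F test over all libraries compared the C5 change among chemicals. CPM values are scaled by TMM library size. Totals of 1061359 to 5250260 counts set the precision of scarce probes.

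The labels give each replicate number a HepaRG batch (3 batches), so the numbers pair libraries across groups. Deviations from group means correlated with a median of 0.023 within a batch (232 pairs) and -0.011 between batches (464 pairs). Main tests had no batch block. Replicates are wells of different batches, and p-values measure the spread between them.

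Members and gene lists were chosen with earlier results of these data known. All member probes are named. From each list the up to 3 probes called at C5 in the most chemicals are named per direction, with HLA-G and CIITA (1 further gene of this rule is not reported here), and for each member the 3 probes most alike. HLA-G was at 0 in 108 libraries and was not tested. Alternatives were DESeq2 1.42.0, other scalings, no low-count filter, no fold limit, the batch block and leaving out batches or trichostatin A libraries. Leaving out the 7 libraries that stood apart (score over 0.4 on the first residual component, 26.9% of the variance) was chosen after seeing the data. Libraries at the other end of that component, mocetinostat C2 batch 3 (-0.53) and C3 batch 2 (-0.48), were kept. Promoter windows were found in RefSeq for 7 of 9 members; HLA-E and NLRC5 had none.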

Additional observations from a re-analysis of the deposited data

Results flagged for a closer look

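The change from C1 to C5 differed among the 8 chemicals for 5 of the 11 probes in the edgeR F test over all libraries. For TAPBP_26444 (adjusted p 7.78e-06) the changes ran from -1.34 in mocetinostat to -0.12 in trichostatin A, and for TAPBP_6944 (adjusted p 0.00746) from -2.04 in tacedinaline to 0.19 in trichostatin A. TAP2_27935 (adjusted p 0.00386) ran from -0.77 in scriptaid to 0.38 in vorinostat. NLRC5 (adjusted p 0.0126) ran from -2.56 in vorinostat to 0.34 in valproic acid, and TAP1 (adjusted p 0.0212) from -1.64 in panobinostat to 2.36 in vorinostat. Without HepaRG batch 2 the last 3 were at 0.219, 0.410 and 0.452 and TAPBP_6944 at 0.280. Without batch 1, TAP2_27935, NLRC5 and TAP1 were at 0.0591, 0.0931 and 0.0590, and HLA-F at 0.0345, and without batch 3 TAP1 was at 0.0697. The cause of these differences was not tested.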

How the results depend on the processing

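No result turned its direction under any alternative. Of 40 calls at C5 or as a slope, 17 were made under every alternative run, and of 360 results under alternatives 315 kept their call and 45 lost it, 38 of them by leaving out a batch. Leaving out 1 batch gave 1 to 2 rises at C5 (3 with all), 11 to 16 falls at C5 (16), 8 to 15 calls at C2 to C4 (13), 0 to 1 rises (3) and 12 to 14 falls (18) by slope, and 1 to 4 probes that differed among chemicals (5). Without a fold limit 5 results rose at C5. With total counts only, 5 rose by slope, and that scaling shifted the median C5 change over all probes by up to 0.189 (tacedinaline). Without the libraries that stood apart there were 24 calls at C2 to C4 and 24 falls at C5. DESeq2 gave 18 falls and 3 rises at C5, and no filter on low counts gave 22 falls. With the replicate block (HepaRG batch) there were 17 falls and 3 rises at C5, 15 calls at C2 to C4, 20 falls and 2 rises by slope, and 6 probes that differed among chemicals; of the 40 calls at C5 or by slope the block ended only the TAP2_22949 slope in vorinostat (adjusted p 0.0547), and it changed no call other than those given with it in the report. Depth limits the probes under about 15 CPM (HLA-F, TAP1, TAP2_22949 and NLRC5 in most libraries).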
